A study of Mus musculus with 16 samples.

Results

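Transcripts of the matrix metalloproteinases (Mmp genes), the ADAMTS proteases and the tissue inhibitors of metalloproteinases (Timp genes) were followed in RNA of mouse lungs. Members were taken by symbol alone: Mmp or Adamts followed by a number, with a letter where there was one, and Timp1 to Timp4. This gave 46 of the 53647 genes in the table, of which 23 were Mmp, 19 Adamts and 4 Timp genes. There were 4 groups of 4 libraries. Lungs of the first had bleomycin and the vector labelled Ad-ATP12A, those of the second bleomycin and the vector labelled Ad-GFP, those of the third bleomycin alone, and those of the last were controls. Bleomycin is a drug whose lung toxicity serves as a laboratory model of fibrosis. ATP12A is the catalytic chain of an epithelial pump that exchanges protons for potassium. Each group had 2 libraries in each of 2 labelled batches. A library is written by batch and replicate, so b2r1 is batch 2, replicate 1, and the 4 values of a group are given in the order b1r1, b1r2, b2r1, b2r2. The 12 libraries of the 3 bleomycin groups are called exposed. Strain, sex, age, dose, route, day of collection, the species of the transgene, and what the control lungs received are not given in the labels. They also do not say that replicates were separate mice, so p-values measure the spread between libraries, which may be technical.

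These enzymes cut the extracellular matrix. Mmp proteases are zinc enzymes made as inactive proenzymes, secreted or held at the cell surface, that cleave collagens, elastin, laminins and proteoglycans. ADAMTS proteases are secreted zinc enzymes with thrombospondin repeats, some of which trim procollagen and others of which cleave the proteoglycans versican and aggrecan. TIMP proteins bind the active site of these enzymes and block it. In fibrosis of the lung, collagen and elastin accumulate while both proteases and inhibitors are made.

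Part of the family lies side by side. In RefSeq gene order, 10 protein-coding genes in a row on chromosome 9 were Mmp genes: Mmp13, Mmp12, Mmp1b, Mmp3, Mmp1a, Mmp10, Mmp8, Mmp27, Mmp20 and Mmp7. RefSeq promoter windows (GRCm38.p6, 250 bases before to 50 bases after a start) were held for 32 of the 46 members, in 35 windows. The word TGANTCA, the binding motif of the Fos and Jun factors (AP-1), reads as the same pattern on both strands. It stood in a window of 8 of the 10 genes of the row (Mmp8 and Mmp27 lacked it there) and in none of the windows of the 22 other members. Of all 32851 promoter windows, 7.808% held it. Windows of the 4 genes of the row that were higher in all 12 exposed libraries than in any control library are shown, 5′ to 3′ on the plus strand, with the motif in capitals. They are chr9:7347124-7347423 for Mmp12, chr9:7272264-7272563 for Mmp13, chr9:7445572-7445871 for Mmp3 and chr9:7502092-7502391 for Mmp10.
Mmp12: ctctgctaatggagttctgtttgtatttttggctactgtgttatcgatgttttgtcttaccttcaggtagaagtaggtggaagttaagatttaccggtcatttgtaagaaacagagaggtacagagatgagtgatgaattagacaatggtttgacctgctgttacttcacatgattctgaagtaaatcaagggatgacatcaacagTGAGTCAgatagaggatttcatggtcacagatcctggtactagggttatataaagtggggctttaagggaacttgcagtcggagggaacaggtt
Mmp13: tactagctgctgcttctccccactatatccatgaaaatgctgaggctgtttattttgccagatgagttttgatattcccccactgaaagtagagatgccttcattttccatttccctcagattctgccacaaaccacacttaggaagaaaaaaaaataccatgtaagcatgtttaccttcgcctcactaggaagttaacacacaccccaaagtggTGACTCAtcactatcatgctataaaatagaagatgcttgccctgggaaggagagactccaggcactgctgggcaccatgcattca
Mmp3: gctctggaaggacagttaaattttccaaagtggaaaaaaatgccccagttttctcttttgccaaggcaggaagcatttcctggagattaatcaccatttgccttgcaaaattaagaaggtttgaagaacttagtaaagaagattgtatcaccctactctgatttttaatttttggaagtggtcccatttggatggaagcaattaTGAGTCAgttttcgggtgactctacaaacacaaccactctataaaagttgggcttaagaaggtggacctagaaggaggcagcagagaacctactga
Mmp10: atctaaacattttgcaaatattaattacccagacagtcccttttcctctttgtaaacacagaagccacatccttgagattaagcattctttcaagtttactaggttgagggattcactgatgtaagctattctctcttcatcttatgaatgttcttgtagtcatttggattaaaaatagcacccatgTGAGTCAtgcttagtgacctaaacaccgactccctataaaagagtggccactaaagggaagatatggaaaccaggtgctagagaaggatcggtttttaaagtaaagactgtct
The motif began 44 bases before the start in Mmp12, 35 in Mmp13, 46 in Mmp3 and 63 in Mmp10. Mmp12 has a further window at an upstream start, which did not hold it. The other genes of the row with the motif, Mmp1a, Mmp1b, Mmp20 and Mmp7, were too low to be tested. Windows of Mmp14, Mmp23, Timp1, Adamts2 and Adamts12 lacked it, though these genes too were above every control in each exposed library. Mmp2, Mmp19, Adamts4 and Adamts7 were so as well, but no window was held for them. A match is a description of these letters only.

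Values are TPM, a level per transcript length and per library total, so genes can be set side by side. No read counts are kept in it, and depth is unknown. Between 15537 and 16336 genes reached 1 TPM in a library. Lung origin showed in 8 alveolar type 2 markers, whose sum lay between 7280 and 38156 TPM. Mouse Atp12a stood at 5.13, 2.96, 29.0 and 25.7 TPM in the Ad-ATP12A lungs and at 0.2 TPM or less in the other 12 libraries. Libraries stood apart in these ways. Scgb1a1, the club cell secretory protein, was under 1000 TPM in 3 libraries (295 TPM in Ad-GFP b1r1, 128 TPM in bleomycin b2r2, 441 TPM in control b2r1), against 24870 TPM or more in the others. Xist, made from the inactive X chromosome, was above 10 TPM in 3 Ad-ATP12A libraries and in 1 library of each other group. Those were Ad-ATP12A b1r1, b1r2 and b2r2, Ad-GFP b1r1, bleomycin b2r1 and control b1r1, so the groups were not balanced for it. Ad-ATP12A b2r1 also stood apart and is described with Mmp12. The test was limma on log2(TPM + 1) with group means and batch, two-sided, adjusted over 17003 genes (Benjamini-Hochberg). A gene was called at an adjusted p under 0.05, and each fold change is one of log2(TPM + 1), which understates changes of low genes. SE are those of the fit.

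Of the 46 members, 33 were tested and 13 fell under the filter of 1 TPM in 4 libraries. The 13 were Mmp1a, Mmp1b, Mmp7, Mmp16, Mmp20, Mmp21, Mmp24, Mmp27, Adamts13, Adamts16, Adamts18, Adamts19 and Adamts20, and their highest value in any library lay between 0.02 TPM (Mmp20) and 2.61 TPM (Mmp27, in Ad-ATP12A b2r1). Mmp7, matrilysin, an epithelial Mmp, peaked at 0.84 TPM. Among tested members, Mmp10, Mmp17 and Adamts4 reached 1 TPM in no control library and so entered through exposed libraries. Adamts3, Adamts12 and Timp4 did so in 1 control library, Mmp13, Mmp25 and Adamts7 in 2, and Adamts14 and Adamts17 in 3. These too needed exposed libraries to reach the 4 of the filter. At the other end, 22 members were at 1 TPM or more in all 16 libraries.

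In control lungs the inhibitors led. Timp3, which binds to the matrix itself, averaged 453 ± 94.9 TPM and Timp2 272 ± 39.5 TPM (SD, n = 4), and Timp3 was above Timp2 in each control library. Next came Adamts10 (63.9 ± 17.1 TPM), Adamts1 (52.2 ± 12.9 TPM), Mmp15 (47.2 ± 10.1 TPM) and Mmp2 (42.0 ± 12.6 TPM), neighbours whose ranges overlapped. Mmp14 followed at 34.6 ± 4.50 TPM and Mmp11 at 24.7 ± 4.53 TPM, whose ranges overlapped too. Mmp12 and Timp1 ranked 12 and 18 of the 46 members there, at 13.3 ± 2.59 TPM and 8.49 ± 1.60 TPM.

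Bleomycin lungs against control lungs asked which members changed with bleomycin alone. Of 33 tested members, 13 were called higher and 1 lower. The 13 include Mmp13, Adamts4, Adamts7 and Adamts12, which passed the filter only with exposed libraries. Over all genes tested, 18.8% were called (13.2% higher, 5.61% lower). The median log2 fold change was 0.46 over the tested members and 0.05 over all genes. In 16 members every bleomycin library was above every control and in 1 below, which 16.5% and 6.92% of all genes were. By role, 6 of 10 tested secreted Mmp genes were higher and 1 lower, and 2 of 5 membrane-bound Mmp genes were higher. Of the Adamts genes, 1 of 6 proteoglycan-cleaving, 1 of 3 procollagen-cleaving and 2 of 5 others were higher, as was 1 of 4 Timp genes.

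**Figure D1:**
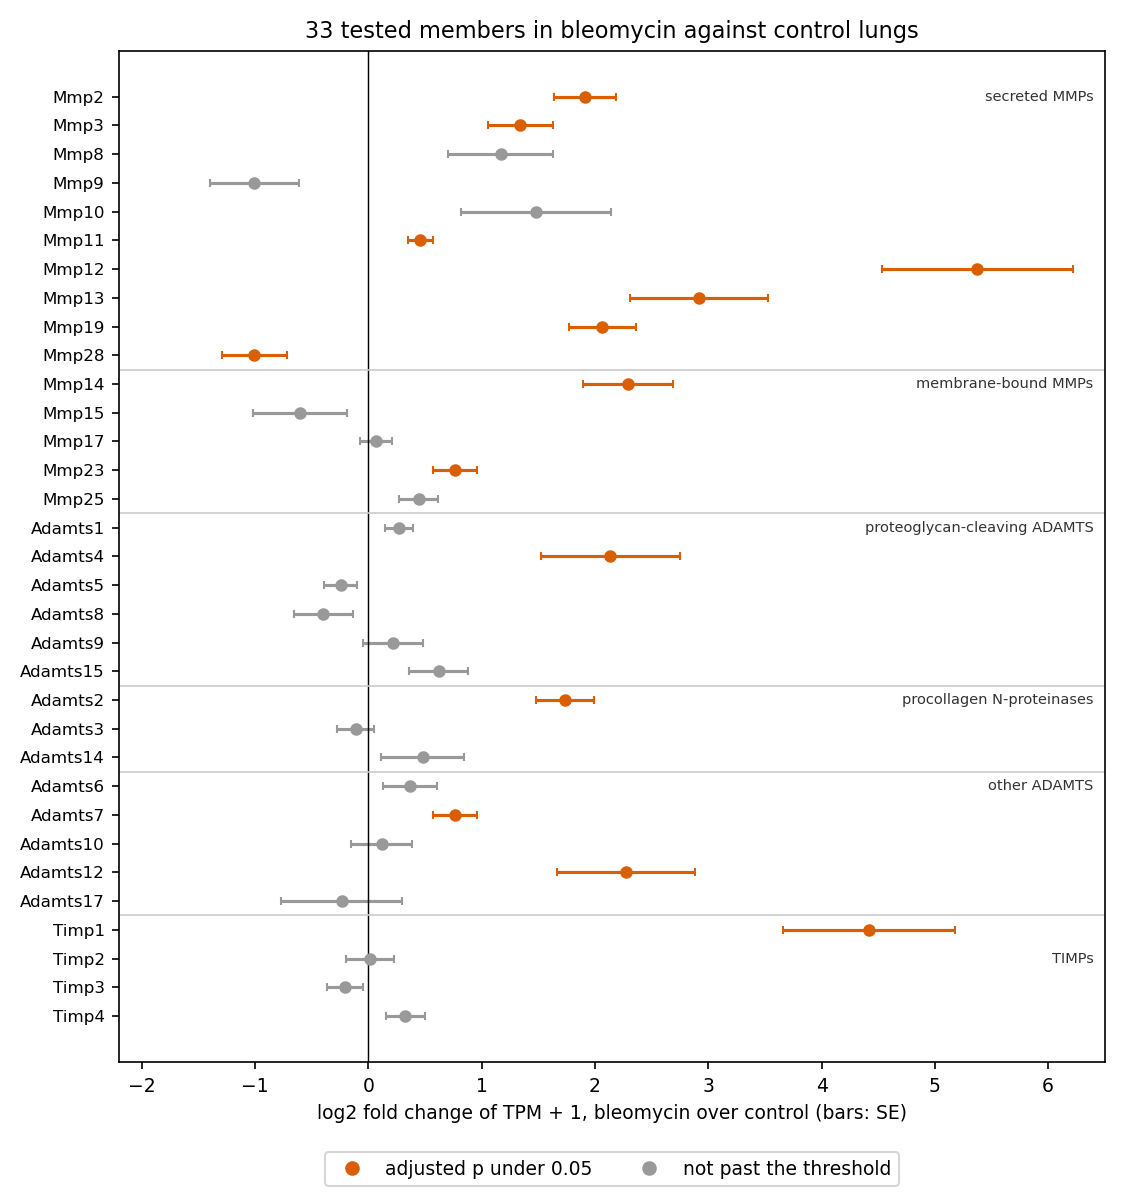
Log2 fold change of TPM + 1 (x axis) in bleomycin over control lungs for the 33 tested members, grouped by role, with SE bars (n = 4 libraries a group); orange points passed an adjusted p of 0.05. Mmp12 at 5.38 and Timp1 at 4.42 lie farthest to the right, and Mmp28 at -1.01 is the orange point left of 0.

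Mmp12, the macrophage elastase, stood at 1048, 449, 217 and 1159 TPM in bleomycin lungs, against 15.3, 15.8, 11.7 and 10.5 TPM in control lungs. The groups lay far apart, with the lowest bleomycin library b2r1. The log2 fold change was 5.38 ± 0.85 (SE; adjusted p = 0.00127), 5.38 in batch 1 and 5.37 in batch 2. Mmp13, a collagenase, had 23.3, 9.95, 3.82 and 25.1 TPM in bleomycin lungs, against 1.37, 0.37, 0.56 and 1.02 TPM in control lungs (log2 fold change 2.92 ± 0.61, adjusted p = 0.00616). Bleomycin b2r1 was again the lowest of its group and still above each control.

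Mmp3, stromelysin 1, which also activates other Mmp proenzymes, had 44.5, 31.5, 25.8 and 48.8 TPM in bleomycin lungs, against 14.6, 14.3, 13.2 and 13.1 TPM in control lungs. The control values lay within a narrow band and the bleomycin values all above it (log2 fold change 1.34 ± 0.29, adjusted p = 0.00691). Mmp19 had 72.1, 44.5, 34.05 and 59.6 TPM in bleomycin lungs, against 11.7, 11.7, 11.4 and 10.5 TPM in control lungs (2.07 ± 0.29, adjusted p = 0.00066). Mmp2, gelatinase A, which cleaves basement membrane and denatured collagen, had 135, 122, 179.9 and 195 TPM in bleomycin lungs, against 39.2, 54.2, 49.1 and 25.4 TPM in control lungs (1.91 ± 0.27, adjusted p = 0.00069). Both sets were apart without overlap.

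Mmp14, the membrane enzyme that activates proMmp2 at the cell surface, had 209, 188, 115 and 194 TPM in bleomycin lungs, against 38.5, 36.0, 35.7 and 28.1 TPM in control lungs. It rose by 2.29 ± 0.40 on the log2 scale (adjusted p = 0.00233), with all bleomycin libraries above all controls. Mmp23, another membrane-bound member, had 25.6, 20.1, 17.8 and 23.4 TPM in bleomycin lungs, against 10.03, 9.77, 16.7 and 13.8 TPM in control lungs. The gap was narrow in batch 2 (0.41, against 1.12 in batch 1; pooled 0.76 ± 0.19, adjusted p = 0.0157). Mmp11, stromelysin 3, rose least, with overlapping ranges: 39.7, 36.5, 28.4 and 31.8 TPM in bleomycin lungs and 27.2, 24.5, 28.6 and 18.4 TPM in control lungs (0.46 ± 0.11, adjusted p = 0.0141).

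Mmp28, epilysin, an epithelial Mmp, was the member that fell. It had 3.78, 4.46, 10.04 and 8.07 TPM in bleomycin lungs, against 12.1, 12.5, 18.4 and 11.4 TPM in control lungs, with every bleomycin value below every control. The log2 fold change was -1.01 ± 0.29 (adjusted p = 0.0276), -1.38 in batch 1 and -0.63 in batch 2.

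Adamts2, the main procollagen I N-proteinase, had 32.7, 22.3, 27.7 and 39.6 TPM in bleomycin lungs, against 7.06, 9.03, 9.72 and 7.54 TPM in control lungs (1.74 ± 0.26, adjusted p = 0.00087). The ranges were apart. The 2 other procollagen N-proteinases, Adamts3 and Adamts14, did not pass. Adamts12 had 8.89, 4.88, 4.99 and 10.5 TPM in bleomycin lungs, against 1.02, 0.54, 0.79 and 0.31 TPM in control lungs (2.27 ± 0.61, adjusted p = 0.0207). Adamts4, an aggrecan- and versican-cleaving enzyme, had 5.97, 4.95, 2.40 and 10.02 TPM in bleomycin lungs, against 0.98, 0.46, 0.19 and 0.21 TPM in control lungs (2.14 ± 0.62, adjusted p = 0.0283). Both were near 1 TPM or below in control lungs. Adamts4 and Adamts12, like Mmp13 and Adamts7, passed the filter only with exposed libraries, so a lower call was hardly possible for them. Adamts7 averaged 2.38 ± 0.40 TPM in bleomycin lungs and 1.00 ± 0.33 TPM in control lungs (SD, n = 4 each; 0.76 ± 0.20, adjusted p = 0.0173). The other proteoglycan-cleaving members, Adamts1, Adamts5, Adamts8, Adamts9 and Adamts15, lay between -0.40 and 0.62 and did not pass.

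Timp1 was the inhibitor that changed. It had 372, 361, 58.5 and 201 TPM in bleomycin lungs, against 8.29, 8.41, 10.6 and 6.69 TPM in control lungs, a log2 fold change of 4.42 ± 0.76 (adjusted p = 0.00223). Bleomycin b2r1 was the lowest of its group, as it was for Mmp12 and Mmp13. That library was also the one of its group with high Xist (143.8 TPM). Timp2 averaged 275 ± 50.04 TPM in bleomycin lungs and 272 ± 39.5 TPM in control lungs (0.01 ± 0.21, adjusted p = 0.981). Timp3 averaged 392 ± 74.0 TPM in bleomycin lungs and 453 ± 94.9 TPM in control lungs (-0.20 ± 0.16, adjusted p = 0.396), and Timp4 1.30 ± 0.19 and 0.85 ± 0.28 TPM in the same order (0.33 ± 0.17, adjusted p = 0.194). The ranges of these 3 overlapped, and the sign of Timp2 turned under 3 other settings (-0.055 with median-ratio scaling, -0.11 in batch 1 alone, -0.011 without the 3 libraries low in Scgb1a1).

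**Figure D2:**
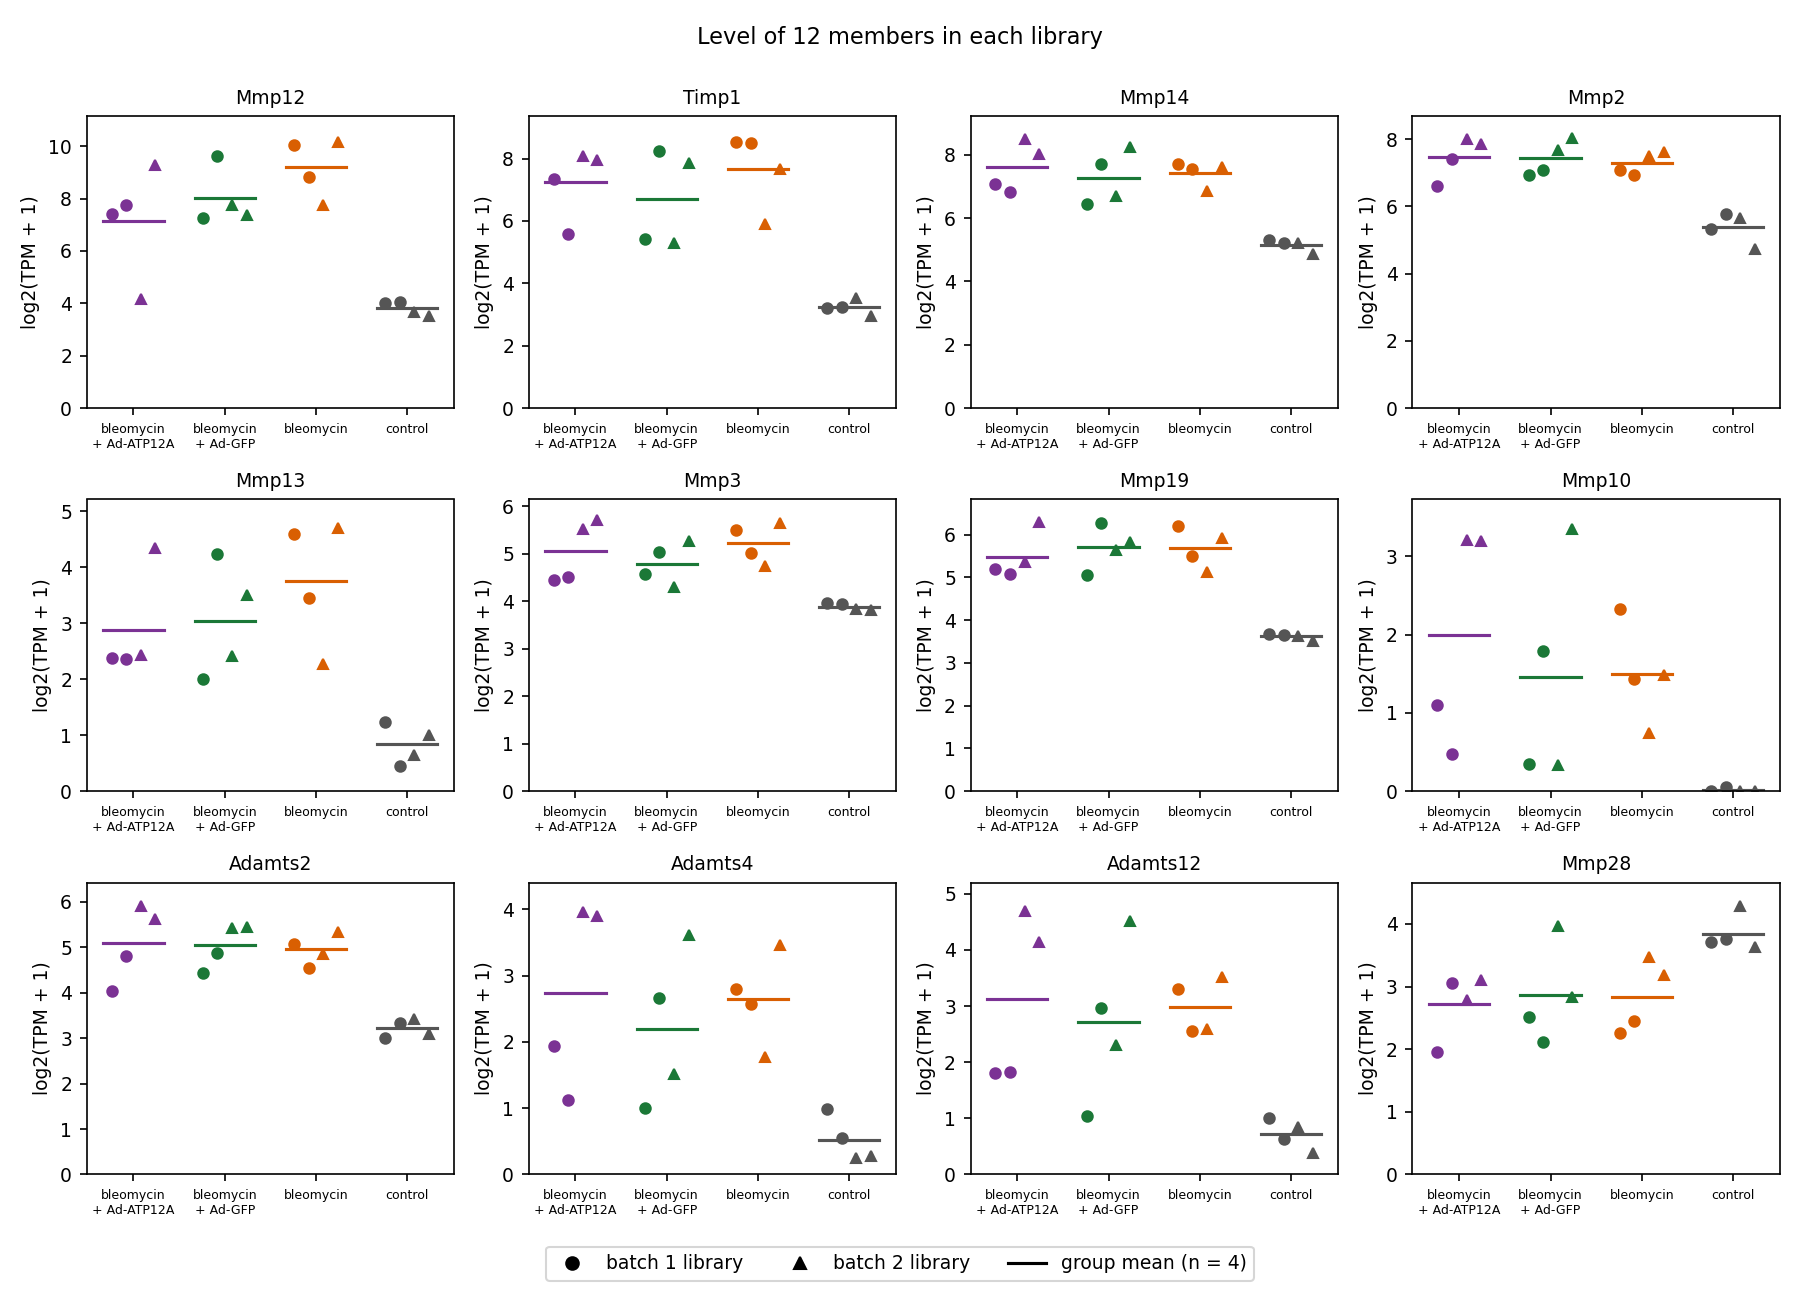
Log2(TPM + 1) of 12 members (y axis) in each library of the 4 groups (x axis), with circles for batch 1, triangles for batch 2 and a line at the group mean (n = 4). Mmp12, Timp1 and Mmp14 lie higher in every exposed library than in any control, and the one low Ad-ATP12A triangle of Mmp12 is b2r1, at 16.8 TPM.

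Of these 14 calls, 8 held whichever library was left out (Mmp2, Mmp3, Mmp12, Mmp13, Mmp14, Mmp19, Adamts2 and Timp1). In batch 2 alone, Mmp19, Mmp14, Timp1, Mmp3, Mmp12 and Mmp13 of these were not called, though their sign stayed (adjusted p between 0.08 and 0.211). Leaving out bleomycin b1r1 ended the calls of Mmp11 (adjusted p = 0.054), Mmp23, Adamts7, Adamts12, Mmp28 and Adamts4, and 8 members were then called. Mmp23 was also lost without control b1r2 (0.0506 to 0.0637 over both fits) and Adamts7 without bleomycin b1r2 (0.0578 to 0.0634). Adamts12 was lost without bleomycin b1r1, b1r2 or b2r2 or control b2r1 or b2r2 (0.0511 to 0.0763). Mmp28 was lost without bleomycin b1r1, b1r2 or b2r2 or control b1r1, b1r2 or b2r1 (0.0598 to 0.0882). Adamts4 was lost without bleomycin b1r1, b1r2 or b2r2 or control b1r2, b2r1 or b2r2 (0.0502 to 0.0882). Without the 3 libraries low in Scgb1a1, 9 members were called, all higher, and Mmp3, Adamts7, Adamts12, Mmp28 and Adamts4 were not (adjusted p between 0.0646 and 0.144). With no filter Adamts12 (adjusted p = 0.0523), Mmp28 (0.0633) and Adamts4 (0.0683) were lost, with no batch term Mmp11 (0.0617), Adamts7 (0.0617) and Mmp28 (0.0883), and with the 8 libraries alone Mmp11 (0.0548).

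Ad-GFP lungs against control lungs gave 13 called members, 10 higher and 3 lower, with 13.7% of all genes called (9.16% higher, 4.52% lower). Ad-ATP12A lungs against control lungs gave 16, 14 higher and 2 lower, with 22.8% of all genes called (13.3% higher, 9.49% lower). The median log2 fold change over the tested members was 0.40 in Ad-GFP lungs and 0.52 in Ad-ATP12A lungs, against 0.03 and 0.0047 over all genes. Ranges stood apart upwards in 13 members in Ad-GFP lungs and 15 in Ad-ATP12A lungs (10.8% and 14.0% of all genes), and downwards in 1 member in each (4.49% and 10.8%). These comparisons and that of bleomycin lungs use the same 4 control libraries, so they are not independent of each other. In every exposed library 13 members were above every control library: Mmp2, Mmp3, Mmp10, Mmp12, Mmp13, Mmp14, Mmp19, Mmp23, Adamts2, Adamts4, Adamts7, Adamts12 and Timp1. Over all genes tested, 7.94% did so. Of the 13, Mmp10 and Adamts4 reached 1 TPM in no control library, Adamts12 in 1, and Mmp13 and Adamts7 in 2. All of these passed the filter only with exposed libraries. No member was below every control in all 12 exposed libraries, which 2.59% of genes were.

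Mmp2 had 95.7, 170.5, 255 and 228 TPM in Ad-ATP12A lungs and 121, 134, 204 and 259 TPM in Ad-GFP lungs. Against control lungs that was 2.09 ± 0.27 (adjusted p = 0.00032) and 2.06 ± 0.27 (adjusted p = 0.00074) on the log2 scale. In both groups the batch 2 libraries were the higher. Mmp14 had 135, 113, 363 and 259.5 TPM in Ad-ATP12A lungs (2.47 ± 0.40, adjusted p = 0.00125) and 86.8, 209.9, 102 and 303 TPM in Ad-GFP lungs (2.14 ± 0.40, adjusted p = 0.00493). Mmp19 averaged 46.5 ± 21.0 TPM in Ad-ATP12A lungs (1.86 ± 0.29, adjusted p = 0.00116) and 53.4 ± 18.2 TPM in Ad-GFP lungs (2.08 ± 0.29, adjusted p = 0.00101). No library of either group fell into the control range of these genes.

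Mmp12 had 171, 217, 16.8 and 619 TPM in Ad-ATP12A lungs and 151, 787, 216 and 167 TPM in Ad-GFP lungs. The b2r1 library with Ad-ATP12A, at 16.8 TPM, was close to the highest control (15.8 TPM), while the other 11 exposed libraries were at 151 TPM or more. The same library had the highest Mmp14 of all 16 (363 TPM), the highest Adamts12 (24.8 TPM) and the highest Adamts4 (14.7 TPM). Against control lungs Mmp12 rose by 3.33 ± 0.85 in Ad-ATP12A lungs (adjusted p = 0.0139; 4.30 without b2r1) and by 4.18 ± 0.85 in Ad-GFP lungs (adjusted p = 0.0074). Of the 8 macrophage markers in that library, C1qa (870.1 TPM) and Adgre1 (132.5 TPM) were the highest of all 16 libraries. Marco (37.0 TPM), Cd68 (267.7 TPM), Mrc1 (95.9 TPM) and Csf1r (132 TPM) were above every control, Itgax (22.5 TPM) was the lowest of the exposed libraries, and Lyz2 was at 5829 TPM. Their part in the Mmp12 value was not tested.

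Timp1 had 161, 47.2, 269.7 and 247 TPM in Ad-ATP12A lungs (4.01 ± 0.76, adjusted p = 0.00318) and 42.2, 302, 37.8 and 228 TPM in Ad-GFP lungs (3.47 ± 0.76, adjusted p = 0.0109). Within each group the libraries spread over several fold, and all were above the control range. Timp2 was at 0.02 ± 0.21 in both groups (adjusted p = 0.947 in Ad-ATP12A and 0.961 in Ad-GFP lungs), and Timp3 at -0.21 ± 0.16 in both (adjusted p = 0.356 and 0.4). Timp4, the low inhibitor, was at 0.43 ± 0.17 in Ad-ATP12A lungs (adjusted p = 0.0789) and 0.29 ± 0.17 in Ad-GFP lungs (adjusted p = 0.276). The signs of Timp2 and Timp3 in these comparisons turned between batches, with Timp2 at -0.51 and 0.56 in Ad-ATP12A lungs and at -0.36 and 0.41 in Ad-GFP lungs in batch 1 and batch 2.

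Adamts2 averaged 37.5 ± 19.8 TPM in Ad-ATP12A lungs (1.88 ± 0.26, adjusted p = 0.00041) and 33.4 ± 10.8 TPM in Ad-GFP lungs (1.83 ± 0.26, adjusted p = 0.00099). Adamts7 rose by 1.08 ± 0.20 (adjusted p = 0.00273) and 0.93 ± 0.20 (adjusted p = 0.00947) in the same order, and Mmp23 by 1.10 ± 0.19 (adjusted p = 0.00215) and 0.85 ± 0.19 (adjusted p = 0.0127). Adamts12 had 2.50, 2.55, 24.8 and 16.7 TPM in Ad-ATP12A lungs (2.40 ± 0.61, adjusted p = 0.0142) and 1.07, 6.84, 3.94 and 21.9 TPM in Ad-GFP lungs (1.99 ± 0.61, adjusted p = 0.045). The high libraries of Adamts12 were in batch 2, where the Ad-ATP12A difference was 3.80, against 1.00 in batch 1. Mmp13 averaged 8.01 ± 7.54 TPM in Ad-ATP12A lungs (2.04 ± 0.61, adjusted p = 0.0294) and 8.89 ± 6.77 TPM in Ad-GFP lungs (2.20 ± 0.61, adjusted p = 0.0305). Mmp28 fell in both, to 5.91 ± 2.17 TPM in Ad-ATP12A lungs (-1.12 ± 0.29, adjusted p = 0.0149) and 7.22 ± 5.11 TPM in Ad-GFP lungs (-0.99 ± 0.29, adjusted p = 0.0379), against 13.6 ± 3.22 TPM in control lungs. Adamts8, which is high in healthy lung, had 10.5 ± 3.90 TPM in Ad-ATP12A lungs (-0.89 ± 0.26, adjusted p = 0.0249) and 11.0 ± 4.19 TPM in Ad-GFP lungs (-0.83 ± 0.26, adjusted p = 0.0456), against 19.7 ± 3.45 TPM in control lungs.

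Some members passed in the Ad-ATP12A comparison and not in the Ad-GFP one, or the reverse. Mmp3 (1.16 ± 0.29, adjusted p = 0.0122), Adamts4 (2.22 ± 0.62, adjusted p = 0.0209), Mmp25 (0.52 ± 0.17, adjusted p = 0.0422) and Mmp10 (1.98 ± 0.66, adjusted p = 0.0453) were higher in Ad-ATP12A lungs. In Ad-GFP lungs the same genes were at 0.90, 1.69, 0.39 and 1.44, with adjusted p of 0.0512, 0.0835, 0.145 and 0.161. Mmp10, stromelysin 2, had 1.15, 0.39, 8.23 and 8.12 TPM in Ad-ATP12A lungs, 0.27, 2.46, 0.26 and 9.16 TPM in Ad-GFP lungs and 4.02, 1.69, 0.67 and 1.79 TPM in bleomycin lungs. Control lungs had 0, 0.04, 0 and 0 TPM, so its fitted value depends on the pseudocount and is no measure of a fold. Mmp10, Adamts4 and Mmp25 passed the filter only with exposed libraries, so a lower call was hardly possible for them. Mmp9, gelatinase B, was lower in Ad-GFP lungs (-1.58 ± 0.40, adjusted p = 0.02). Mmp9 was at -0.79 in Ad-ATP12A lungs (adjusted p = 0.161) and at -1.01 in bleomycin lungs (adjusted p = 0.09). Tested directly between the vector groups, no member passed.

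Several of these calls lay near the threshold and were lost when a single library was left out. Where that library was outside the comparison, the fold change stayed the same and only the adjusted p moved. In Ad-ATP12A lungs, Adamts12 (adjusted p = 0.0523) and Mmp28 (0.0508) were lost without Ad-ATP12A b2r1. Adamts4 was lost without Ad-ATP12A b2r1 or b2r2 or control b2r1 or b2r2 (0.0502 to 0.0722), Mmp13 without Ad-ATP12A b2r2 or control b1r2 or b2r1 (0.0647 to 0.0981), and Adamts8 without Ad-ATP12A b1r1 or b2r1 or control b1r2 (0.0679 to 0.0851). Mmp10 was lost without Ad-ATP12A b1r1, b2r1 or b2r2, Ad-GFP b1r2, bleomycin b1r2 or b2r2 or any control (0.0505 to 0.134). Mmp25 was lost without Ad-ATP12A b1r1, b1r2 or b2r2, Ad-GFP b1r1, bleomycin b1r1 or b2r2 or control b1r2, b2r1 or b2r2 (0.0507 to 0.0992). In Ad-GFP lungs, Mmp9 was lost without Ad-GFP b2r2 or control b1r1 or b1r2 (0.0531 to 0.0693). Mmp13 was lost without Ad-GFP b1r2 or b2r2 or control b1r1, b1r2 or b2r1 (0.0512 to 0.114). Mmp28 was lost without Ad-GFP b1r1, b1r2 or b2r2, bleomycin b1r2 or b2r2 or control b1r1, b1r2 or b2r1 (0.0502 to 0.131). Adamts12 was lost without Ad-ATP12A b2r2, Ad-GFP b1r2 or b2r2, bleomycin b1r2 or b2r2 or any control (0.0525 to 0.153), and Adamts8 without Ad-ATP12A b2r2, Ad-GFP b1r2 or b2r2, any bleomycin or any control library (0.0521 to 0.154). Without the 3 libraries low in Scgb1a1, 10 members were called in each comparison, all higher. With no filter, Adamts4, Adamts8, Mmp13, Mmp25 and Mmp10 were lost in Ad-ATP12A lungs (adjusted p 0.0535 to 0.103) and Mmp13, Mmp28, Adamts12 and Adamts8 in Ad-GFP lungs (0.0715 to 0.101). With no batch term, Mmp28, Mmp25 and Mmp10 were lost in Ad-ATP12A lungs (0.0528 to 0.0729), and Mmp28, Adamts12 and Adamts8 in Ad-GFP lungs both then (0.0648 to 0.114) and with the 8 libraries alone (0.0826 to 0.0944). Mmp25 was also lost in Ad-ATP12A lungs with a term for Xist (0.101).

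**Figure D3:**
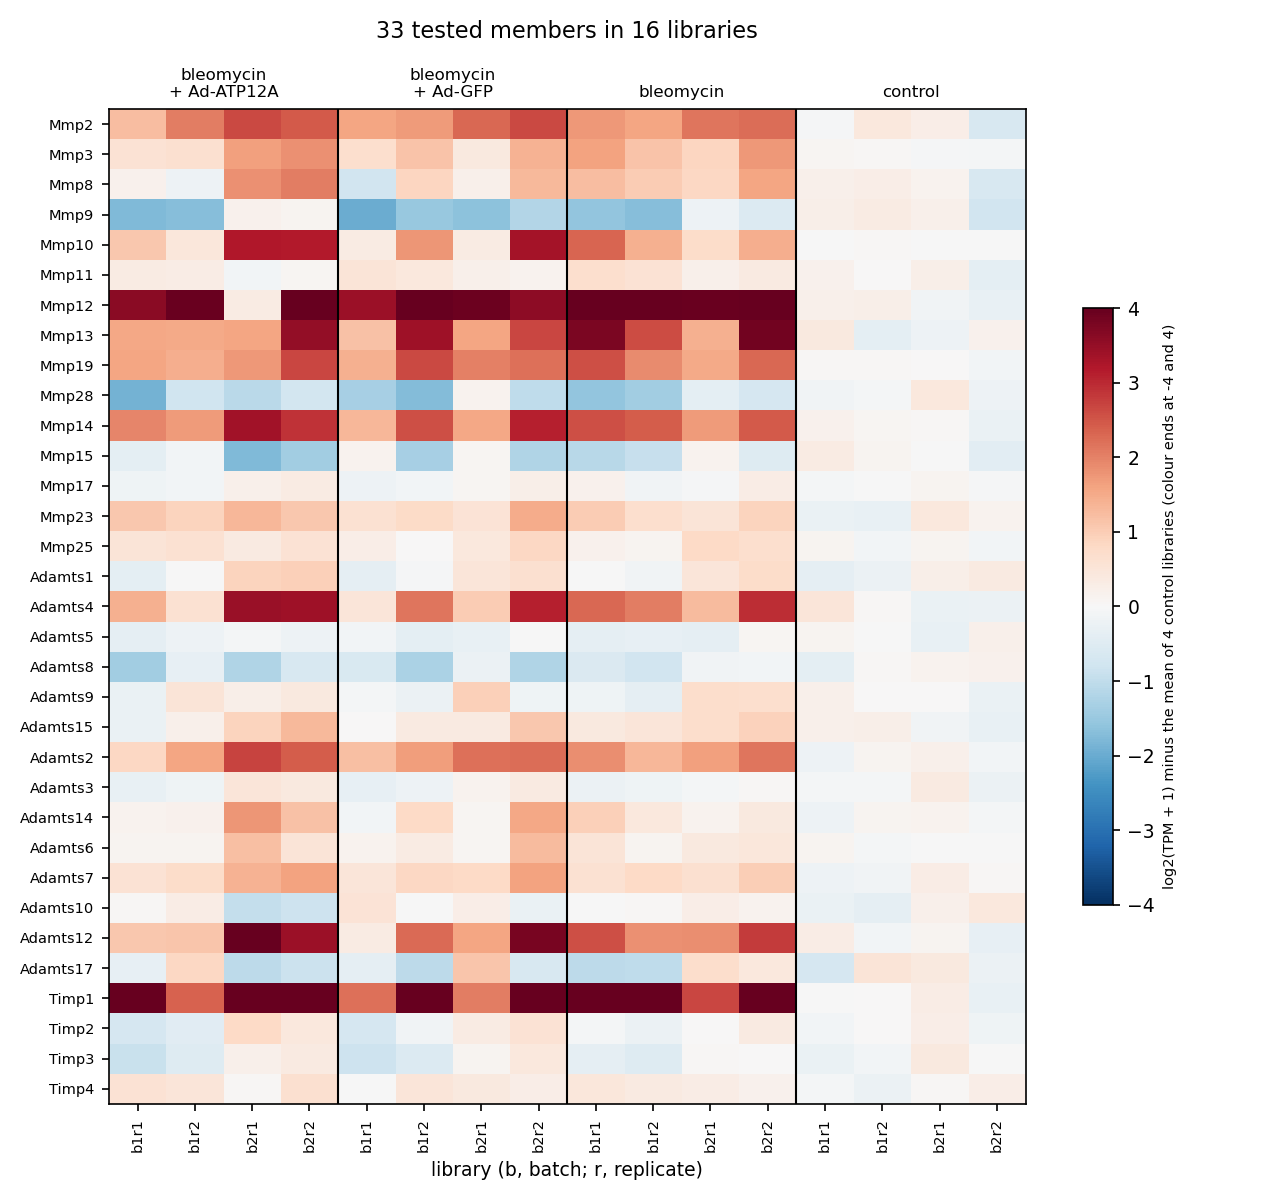
Log2(TPM + 1) minus the mean of the 4 control libraries (colour, ending at -4 and 4) for the 33 tested members (rows, by role) in the 16 libraries (columns). The rows of Mmp2, Mmp14, Mmp19 and Adamts2 are red across all 12 exposed libraries, and the Mmp12 row is pale in Ad-ATP12A b2r1.

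Ad-ATP12A lungs against Ad-GFP lungs asked what the ATP12A vector changed beyond a vector. No member was called, and none had an unadjusted p under 0.05 in limma; over all genes, 0.00588% were called, which was 1 gene. No member had ranges apart, as 0.312% of genes did upwards and 0.459% downwards. With the 8 libraries compared alone, 1 member had an unadjusted p under 0.05 and none was called. The smallest p were those of Mmp9 (0.78 ± 0.40, adjusted p = 0.999), Adamts10 (-0.49 ± 0.27), Mmp11 (-0.18 ± 0.11), Adamts1 (0.18 ± 0.13) and Mmp23 (0.25 ± 0.19). Mmp9 had 1.76, 1.85, 9.55 and 9.06 TPM in Ad-ATP12A lungs, against 1.37, 2.24, 1.98 and 3.15 TPM in Ad-GFP lungs, so the groups were alike in batch 1 (0.02) and apart in batch 2 (1.55). Timp1 was at 0.54 ± 0.76, Timp2 at 0.0035 ± 0.21, Timp3 at -0.0024 ± 0.16 and Timp4 at 0.15 ± 0.17. The sign of Timp1 turned in batch 1 alone (-0.37), those of Timp2 and Timp3 turned under other settings, and a missed threshold does not show that the groups were alike.

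Ad-GFP lungs against bleomycin lungs asked what a vector added to bleomycin. Again no member was called and none had an unadjusted p under 0.05, with 0.0118% of all genes called (2 genes, 0.00588% in each direction). No member had ranges apart, as 0.276% of genes did upwards and 0.529% downwards. With the 8 libraries alone, 1 member had an unadjusted p under 0.05 and none was called. The smallest p were those of Adamts8 (-0.44 ± 0.26, adjusted p = 1.00), Mmp8 (-0.77 ± 0.47), Mmp3 (-0.44 ± 0.29), Mmp9 (-0.57 ± 0.40) and Mmp12 (-1.19 ± 0.85). Mmp12 averaged 330.0 ± 306 TPM in Ad-GFP lungs and 718 ± 457 TPM in bleomycin lungs (SD, n = 4 each), a spread that covered the gap. Timp1 was at -0.95 ± 0.76, Timp2 at 0.0099 ± 0.21, Timp3 at -0.0057 ± 0.16 and Timp4 at -0.04 ± 0.17. The signs of Timp2 (-0.26 in batch 1 alone), Timp3 (0.24 in batch 2 alone) and Timp4 (0.0905 in batch 2 alone) turned under other settings.

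Summed over the family, the balance of transcripts differed between exposed and control lungs. The 23 Mmp genes summed to 862 ± 356 TPM in Ad-ATP12A lungs, 886 ± 352 TPM in Ad-GFP lungs, 1272 ± 532 TPM in bleomycin lungs and 229 ± 35.8 TPM in control lungs (SD, n = 4 each). Mmp12 made up 27.4%, 33.6%, 51.7% and 5.84% of that sum on average, in the same order. The 4 Timp genes summed to 891 ± 378, 852 ± 316, 917 ± 92.2 and 734 ± 132 TPM. The Timp sum over the Mmp sum was 1.05 ± 0.31, 1.00 ± 0.31, 0.809 ± 0.28 and 3.26 ± 0.67. The highest exposed library was at 1.497 and the lowest control library at 2.56. Without Mmp12 the ratio was 1.44 ± 0.15, 1.51 ± 0.22, 1.66 ± 0.11 and 3.46 ± 0.69. The 19 Adamts genes summed to 237 ± 62.0, 231 ± 40.9, 234 ± 44.7 and 178 ± 29.3 TPM. These are transcript sums of unlike enzymes and say nothing of protein or activity.

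**Figure D4:**
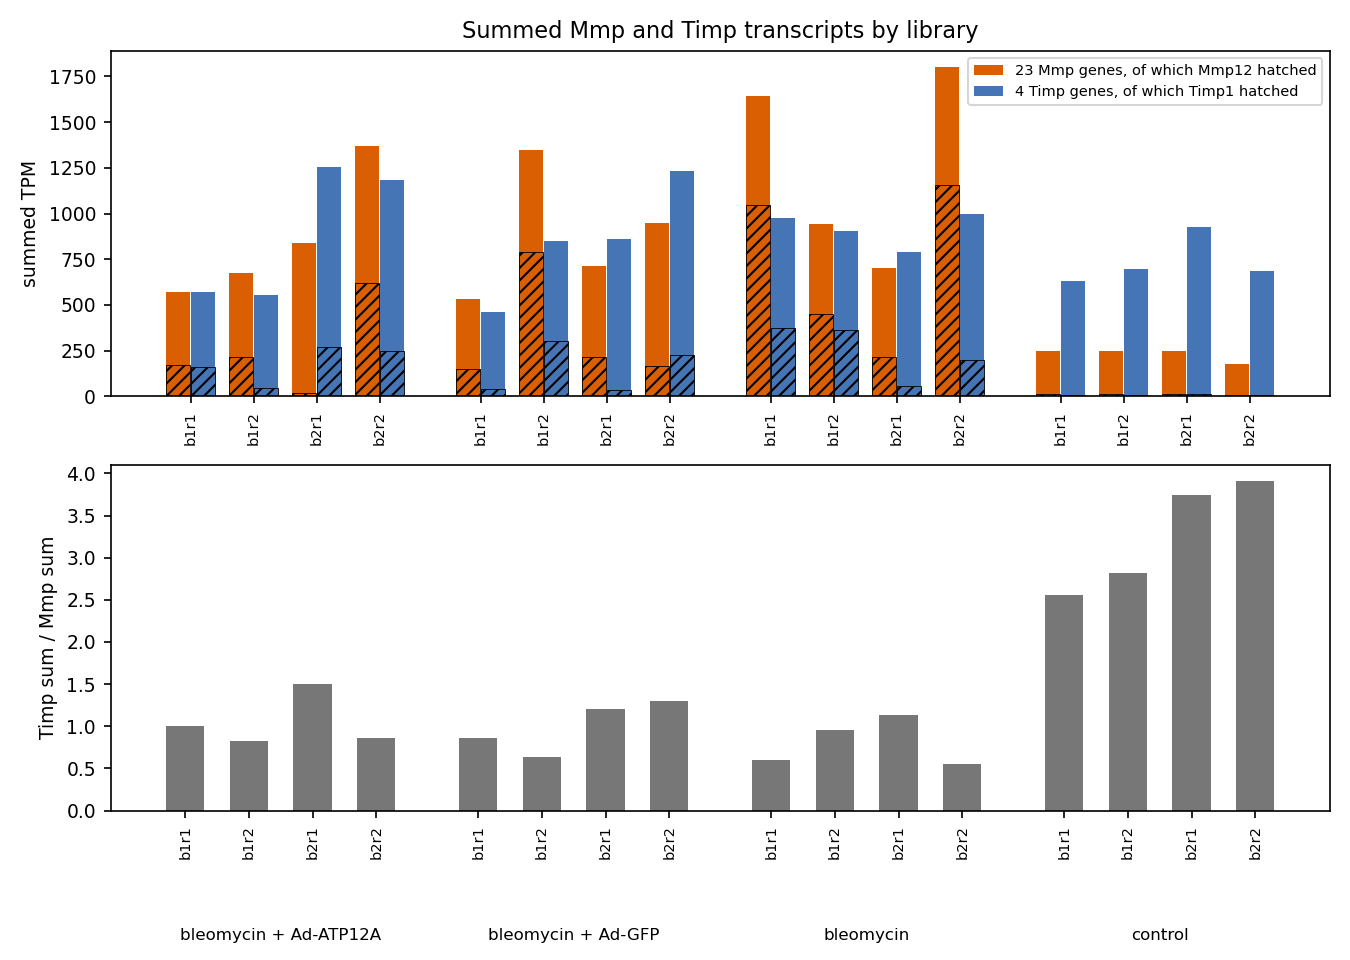
Top: summed TPM of 23 Mmp genes (orange, with Mmp12 hatched) and of 4 Timp genes (blue, with Timp1 hatched) in each library of the 4 groups. Bottom: the ratio of the Timp sum to the Mmp sum, which lies between 0.553 and 1.497 in exposed libraries and between 2.56 and 3.91 in control libraries.

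Batch 2 was set against batch 1 over all groups. Of 33 tested members, 7 were higher in batch 2 and 1 was lower, where 18.5% of all genes were called (16.4% higher, 2.11% lower). Adamts1, an enzyme that cleaves versican, averaged 78.7 ± 14.0 TPM in batch 2 and 44.6 ± 5.11 TPM in batch 1 (SD, n = 8 each; 0.79 ± 0.09, adjusted p = 0.00306 in limma). Timp3 averaged 513 ± 66.2 TPM in batch 2 and 319 ± 58.4 TPM in batch 1 (0.70 ± 0.11, adjusted p = 0.00696), and Timp2 344 ± 71.5 TPM and 223 ± 39.8 TPM (0.62 ± 0.15, adjusted p = 0.0165). So the 2 abundant inhibitors that did not pass with bleomycin differed between batches. Adamts2 (0.63 ± 0.18, adjusted p = 0.0312), Adamts3 (0.39 ± 0.11, adjusted p = 0.0342), Mmp28 (0.68 ± 0.20, adjusted p = 0.0353) and Adamts7 (0.46 ± 0.14, adjusted p = 0.0355) were higher in batch 2, and Mmp11 lower (-0.28 ± 0.08, adjusted p = 0.0284). Timp1 (-0.11 ± 0.54, adjusted p = 0.899) and Timp4 (0.0078 ± 0.12, adjusted p = 0.972) did not pass, and both signs turned under other settings. Without the 3 libraries low in Scgb1a1 no member and no gene of the 17003 was called, with 8 members at an unadjusted p under 0.05; Adamts1 was then at 0.78 (adjusted p = 0.0756) and Timp3 at 0.65 (adjusted p = 0.0973). Adamts1, Timp3 and Timp2 held whichever single library was left out. The count fell to 3 members without Ad-ATP12A b1r1, without Ad-GFP b1r1 or without bleomycin b2r2, and Adamts2, Adamts3, Adamts7, Mmp11 and Mmp28 were each lost in 8 to 12 of the 16 such fits (adjusted p up to 0.0801). With no filter Adamts2, Mmp28 and Adamts7 were lost (0.0721 to 0.0888), and with median-ratio scaling those and Adamts3 (0.0626 to 0.0814).

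Interaction contrasts asked if a group difference was unequal in the 2 batches. For bleomycin, no member was called, with 3 members at an unadjusted p under 0.05, and 0.0647% of all genes called (0.0471% higher, 0.0176% lower). The smallest p were those of Mmp9 (1.83 ± 0.40, adjusted p = 0.0672), Adamts9 (1.20 ± 0.45), Adamts15 (0.80 ± 0.35), Mmp25 (0.60 ± 0.27) and Mmp2 (0.91 ± 0.43). For Ad-GFP lungs no member was called either, with 6 members at an unadjusted p under 0.05 and 2.36% of genes called (1.61% higher, 0.747% lower). Adamts10 was at -0.91 ± 0.28 (adjusted p = 0.0933). For Ad-ATP12A lungs against control lungs 3 members were called, where 2.80% of genes were (1.01% higher, 1.79% lower): Adamts10 (-1.70 ± 0.28, adjusted p = 0.0287), Mmp9 (2.45 ± 0.40, adjusted p = 0.0287) and Adamts15 (1.54 ± 0.35, adjusted p = 0.0475). Timp2 was at 1.07 ± 0.31 (adjusted p = 0.0703) and Mmp8 at 2.43 ± 0.71 (adjusted p = 0.0735). The interactions of the vector groups were added after the data were seen. The difference between Ad-ATP12A and Ad-GFP lungs gave no called member and no called gene in its interaction, with 4 members at an unadjusted p under 0.05.

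Adamts10, an enzyme tied to fibrillin microfibrils, had 64.5, 77.0, 31.9 and 34.4 TPM in Ad-ATP12A lungs, against 51.4, 48.0, 72.2 and 83.8 TPM in control lungs. The Ad-ATP12A libraries were above the controls in batch 1 and below them in batch 2. Adamts15 had 9.23, 13.3, 21.9 and 29.1 TPM in Ad-ATP12A lungs, against 13.1, 13.6, 10.2 and 9.17 TPM in control lungs. The Ad-ATP12A libraries were above the controls in batch 2 and overlapped them in batch 1. The calls of Adamts10 and Mmp9 were lost without any one Ad-ATP12A library, bleomycin b1r1 or b1r2, or control b1r1, b1r2 or b2r2 (adjusted p 0.0535 to 0.119). That of Adamts15 was lost without any one Ad-ATP12A or bleomycin library, or control b1r1, b1r2 or b2r2 (0.0594 to 0.152). With no filter Mmp9 (0.053) and Adamts15 (0.086) were lost.

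Mmp8 and Mmp9 are enzymes of neutrophil granules, so they are given beside 8 neutrophil markers. Mmp9 had 2.13, 1.86, 7.10 and 5.37 TPM in bleomycin lungs and 10.1, 10.6, 9.62 and 4.50 TPM in control lungs. Mmp8 had 9.22, 7.73, 6.74 and 11.9 TPM in bleomycin lungs and 4.02, 4.18, 3.80 and 1.80 TPM in control lungs, higher without overlap but not past the threshold (1.17 ± 0.47, adjusted p = 0.0942). The sum of the neutrophil markers had medians of 289.9 TPM in Ad-ATP12A lungs, 204 TPM in Ad-GFP lungs, 264 TPM in bleomycin lungs and 661 TPM in control lungs. It ranged from 134 to 506, from 168 to 246, from 137 to 636 and from 192 to 701 TPM. Control b2r2 was the lowest control for that sum (192 TPM), for Mmp8 and for Mmp9. Of the 8 markers 5 were tested and 0 passed in any group against control, and none of the 8 was at 0 throughout a group. The part of neutrophils in these values was not tested.

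**Figure D5:**
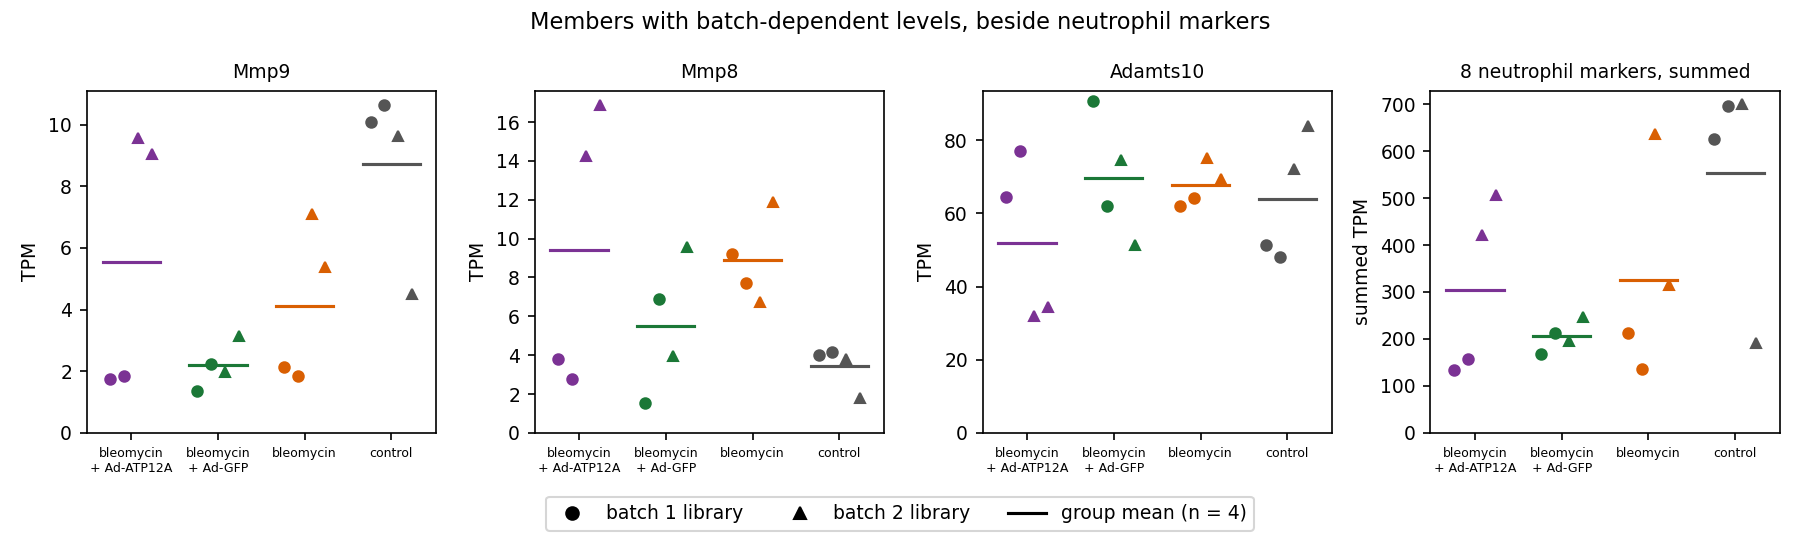
TPM of Mmp9, Mmp8 and Adamts10 and the summed TPM of 8 neutrophil markers (y axes) in each library of the 4 groups (x axis), with circles for batch 1, triangles for batch 2 and a line at the group mean (n = 4). Control b2r2 is the low triangle of the control group for Mmp9 (4.50), Mmp8 (1.80) and the marker sum (192).

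Levels in whole lung depend on which cells are present, and fewer cells of a type cannot be told apart from less RNA per cell. In the comparisons with control, calls over all genes were 13.3% higher and 9.49% lower in Ad-ATP12A, 9.16% and 4.52% in Ad-GFP, and 13.2% and 5.61% in bleomycin lungs. Of 8 macrophage markers 3 were higher in each exposed group (C1qa and Cd68 in each). Their sum was 6581 to 9391 TPM in Ad-ATP12A, 7217 to 11747 TPM in Ad-GFP, 6317 to 10547 TPM in bleomycin and 5646 to 10753 TPM in control lungs. Most of that sum was Lyz2, lysozyme, which neutrophils and alveolar type 2 cells also make. Without Lyz2 the other 7 markers summed to 517 to 1558 TPM in Ad-ATP12A, 381 to 1335 TPM in Ad-GFP and 563 to 1030 TPM in bleomycin lungs. Control lungs had 171 to 301 TPM, so each exposed library was above each control. That sum was taken after the values were seen. Of the 7, only C1qa was itself above every control in each exposed library (161.5 to 870 TPM, against 40.75 to 55.2 TPM). The ranges of the others overlapped, as for Marco at 3.06 to 67.8 TPM in exposed and 2.79 to 22.35 TPM in control libraries. Of 8 fibroblast markers 3 were higher in Ad-ATP12A, 3 in Ad-GFP and 4 in bleomycin lungs, led by Col1a1 and Col1a2, and their sum ranged from 691 to 2840, from 571 to 2083 and from 896 to 1625 TPM, against 466 to 600.4 TPM in control lungs. Col1a1 and Col1a2 are also counted among the substrates below. Pdgfra (-0.60, adjusted p = 0.206) and Dcn (-0.04, adjusted p = 0.927) did not pass in bleomycin lungs. Tcf21 of the same list went the other way, at 46.5 to 79.75 TPM in bleomycin lungs against 92.9 to 163.6 TPM in control lungs. Pi16 overlapped, at 3.54 to 19.6 TPM against 12.1 to 15.1 TPM. Of 8 endothelial markers, 6 were lower in Ad-ATP12A lungs, 2 in Ad-GFP and 2 in bleomycin lungs. Other lists moved too: 6 of 8 red blood cell markers were lower in bleomycin lungs, and 6 of 8 cardiac and 5 of 8 alveolar type 1 markers were lower in Ad-ATP12A lungs. No marker of these lists was at 0 throughout a group, and their part in the members' changes was not tested.

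The lists around the family were described in bleomycin lungs against control lungs, where 18.8% of all genes were called. In the plasminogen system, whose protease plasmin activates Mmp proenzymes, 3 of 7 tested genes rose and 0 fell. Among them were Plau, urokinase, which averaged 31.2 ± 12.6 TPM in bleomycin lungs and 8.53 ± 0.87 TPM in control lungs (1.65 ± 0.39, adjusted p = 0.0113), and Serpine2, a serine protease inhibitor (1.38 ± 0.36, adjusted p = 0.0182). Plaur, the urokinase receptor, was at 0.69 ± 0.29 (adjusted p = 0.109). Of 11 tested other activators, inhibitors and uptake receptors, 3 rose and 2 fell. Reck, a membrane-anchored Mmp inhibitor, had 8.35, 10.2, 18.6 and 15.1 TPM in bleomycin lungs, against 27.6, 29.3, 38.4 and 25.1 TPM in control lungs (-1.19 ± 0.23, adjusted p = 0.00372). The groups did not overlap. Tfpi2, a serine protease inhibitor of the matrix, rose by 1.77 ± 0.37 (adjusted p = 0.00587) and Lrp1, an uptake receptor for protease complexes, by 0.94 ± 0.26 (adjusted p = 0.0223). Pcolce2, an enhancer of procollagen C-proteinase, fell by 1.79 ± 0.50 (adjusted p = 0.0251).

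Of 8 ADAM proteases, membrane enzymes related to ADAMTS, 3 rose. Adam15 was at 1.22 ± 0.17 (adjusted p = 0.0005), Adam8 at 1.74 ± 0.30 (adjusted p = 0.00231) and Adam12 at 1.86 ± 0.49 (adjusted p = 0.0189), while Adam17, the TNF convertase, did not pass (0.49 ± 0.18, adjusted p = 0.0738). Among 6 tested ADAMTS-like proteins, which lack the protease domain, Adamtsl2 rose (1.21 ± 0.27, adjusted p = 0.00859) and Adamtsl5 fell (-0.51 ± 0.14, adjusted p = 0.0223). Thsd4 (-0.49 ± 0.22, adjusted p = 0.13) and Adamtsl1 (-0.33 ± 0.20, adjusted p = 0.27) did not pass.

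Among the substrates the share of calls was higher than in the other lists. Of 14 tested substrate genes 11 rose and 0 fell, with a median log2 fold change of 1.96, beside 0.46 for the tested members. Col3a1 averaged 735 ± 162 TPM in bleomycin lungs and 91.0 ± 24.3 TPM in control lungs (3.02 ± 0.33, adjusted p = 0.00013), and Eln, elastin, 636 ± 225 and 43.4 ± 14.2 TPM (3.82 ± 0.46, adjusted p = 0.00023). Tnc, tenascin C, rose by 4.47 ± 0.58 (adjusted p = 0.00036) and Vcan, versican, by 2.37 ± 0.31 (adjusted p = 0.00038). Against the same controls, where 22.8% of all genes were called in Ad-ATP12A lungs, 4 of 7 plasminogen genes were higher, 3 of 11 other activators and inhibitors higher and 2 lower, 3 of 8 ADAM genes higher, 1 of 6 ADAMTS-like genes lower, and 11 of 14 substrates higher and 1 lower. In Ad-GFP lungs, where 13.7% of all genes were called, 1 of 7 plasminogen genes was higher, 4 of 11 other activators and inhibitors higher and 2 lower, 2 of 8 ADAM genes higher, 1 of 6 ADAMTS-like genes higher and 1 lower, and 10 of 14 substrates higher.

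Some members share their place with another gene. Timp1, Timp3 and Timp4 lie inside Syn1, Syn3 and Syn2 on the other strand, and the strand setting of the counting is not given in the sources used here. In the annotation of the earlier build (GENCODE M21) each Timp gene lies wholly within its partner. Syn1 ranged from 0.31 to 1.88 TPM and Syn3 from 0.95 to 2.90 TPM, far below Timp1 and Timp3. Syn2 ranged from 3.94 to 9.63 TPM, above Timp4 in each library, so Timp4 is uncertain. Adamts7 overlaps Tbc1d2b (18.7 to 40.4 TPM), Mmp11 overlaps Chchd10 (42.8 to 166 TPM), Mmp28 overlaps 1700020L24Rik (3.91 to 12.6 TPM), and Mmp19 overlaps Tmem198b (6.37 to 12.5 TPM). These partners lie on the other strand at levels like or above those of the members in control lungs, and the members are uncertain to that extent.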

How the data were processed

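RNA was measured by RNA-seq in 16 mouse lung libraries, 4 a group. The deposited table holds log2(TPM + 1) values, by its name and by its columns, which when back-calculated sum to the fixed total of TPM. Per the labels, 0.6 ug of total RNA entered each library. STAR, RSEM and the build GRCm39 are named in the submitters' processing notes, with no versions. TPM was recovered as 2 to that power minus 1. TPM keeps no read counts, so no count model was used, depth is unknown, and no counting interval is given.

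Symbols came from GENCODE M21, which matched 52093 IDs and not 1554 others, and overlaps were read from it by name only. Genes at 1 TPM or more in at least 4 libraries (17003) were tested with limma 3.58.1 in R 4.3.3, on log2(TPM + 1) with pseudocount 1, a trended prior, 4 group means and an additive batch term, two-sided. Its p-values were adjusted over all of them (Benjamini-Hochberg), with a threshold of 0.05. Batch effects on a group difference were contrasts of 8 group-by-batch means. The fit was tested on simulated data. Genes named are those past the threshold, all 4 Timp genes, the 5 with smallest p where fewer than 5 passed, and up to 4 of each list. Some items that this rule would name are not reported here. Alternatives were a pseudocount of 0.1, no filter, median-ratio scaling, fewer libraries, no batch term, a block and single batches. Added after the data were seen were the vector interactions, a fit without 3 libraries low in Scgb1a1, and a term for Xist. Members and lists were chosen with earlier results of these data known. Figures were drawn with matplotlib 3.10.9 in Python 3.11.15.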

Additional observations from a re-analysis of the deposited data

Results flagged for a closer look

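In 6 of 132 member-by-group sets of 4 libraries, 1 library lay far from the other 3; chance flags about 1 in 20. Mmp13 stood at 19.3 TPM in Ad-ATP12A b2r2, with the other 3 at 4.12 to 4.39 TPM. Adamts9, a proteoglycan-cleaving enzyme, stood at 20.5 TPM in Ad-GFP b2r1, with the others at 8.39 to 9.52 TPM. Adamts5, another such enzyme, stood at 4.11 TPM in bleomycin b2r2, with the others at 2.79 to 2.90 TPM. Mmp8 was at 1.80 TPM in control b2r2, with the others at 3.80 to 4.18 TPM, and Mmp9 at 4.50 TPM in the same library, with the others at 9.62 to 10.6 TPM. That library also had the lowest neutrophil marker sum of its group, and the part of neutrophils was not tested. Mmp10 was at 0.04 TPM in control b1r2, where the others were at 0.

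The difference between Ad-ATP12A and control lungs itself differed between batches for 3 members, among 132 interaction tests on members, by limma with adjustment over all genes. In batch 2 against batch 1 it was -1.70 for Adamts10 (adjusted p = 0.0287), 2.45 for Mmp9 (adjusted p = 0.0287) and 1.54 for Adamts15 (adjusted p = 0.0475). These contrasts were chosen after the data were seen.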

How the results depend on the processing

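With 14, 13 and 16 members called in bleomycin, Ad-GFP and Ad-ATP12A lungs against control, counts stayed within 1.5 times under a pseudocount of 0.1 (15, 16 and 16), no filter (11, 9 and 11), median-ratio scaling (14, 13 and 16), the 8 libraries alone (16, 11 and 17), no batch term (11, 10 and 13) and a term for Xist (14, 14 and 18). In batch 1 alone Ad-ATP12A gave 8, and in batch 2 alone bleomycin gave 2 and Ad-GFP 2. Without the 3 libraries low in Scgb1a1, bleomycin gave 9, Ad-ATP12A 10 and batch 0. The batch count was 5 with no filter and 4 with median-ratio scaling, and the Ad-ATP12A interaction count 1 with no filter. The cause was not tested. Leaving out 1 library gave 8 to 14 for bleomycin, 8 to 15 for Ad-GFP, 12 to 16 for Ad-ATP12A, 3 to 10 for batch, and 0 to 1, 0 to 2 and 0 to 5 for their interactions, in the order bleomycin, Ad-GFP, Ad-ATP12A. The lowest count for bleomycin came without bleomycin b1r1, and for Ad-GFP without Ad-GFP b2r2, control b1r1 or control b1r2. Between Ad-GFP and bleomycin and between Ad-ATP12A and Ad-GFP lungs, 0 members were called under each of these settings, with at most 4 at an unadjusted p under 0.05 (limma).

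With the batch and replicate label (b1r1, b1r2, b2r1 or b2r2) as a block in place of the batch term, 14, 11 and 14 members were called. Adamts12 and Adamts8 lost their call in Ad-GFP lungs, and Mmp25 and Mmp10 in Ad-ATP12A lungs. The block changed no other call of those 3 comparisons. Same-numbered libraries did not deviate together (r from -0.43 to 0.30), so the numbers were not taken as pairs.

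Signs under other settings were followed only for called members, Timp genes and, where few members passed, those with the smallest p. Among these, signs turned only for Timp genes that had passed no test in that comparison. Members not followed could also turn. For example, Adamts10 in Ad-ATP12A lungs was above the controls in batch 1 and below them in batch 2. Against control, Timp2 turned in bleomycin lungs to -0.055 with median-ratio scaling, -0.11 in batch 1 and -0.011 without the 3 libraries, in Ad-GFP lungs to -0.018 with scaling and -0.36 in batch 1, and in Ad-ATP12A lungs to -0.51 in batch 1. Timp3 turned in batch 2 alone to 0.084 in Ad-GFP and 0.094 in Ad-ATP12A lungs. Between Ad-GFP and bleomycin lungs, Timp2 was -0.26 in batch 1, Timp3 0.022 with scaling, 0.24 in batch 2 and 0.056 without the 3 libraries, and Timp4 0.0905 in batch 2 and 0.015 without them. Between Ad-ATP12A and Ad-GFP lungs, Timp1 was -0.37 and Timp2 -0.15 in batch 1, Timp2 -0.14 without the 3 libraries, and Timp3 0.021 with scaling, 0.0093 in batch 2 and 0.064 with the Xist term. Timp4 between batches was -0.049 with scaling and -0.0301 without the 3 libraries. Leaving out 1 library, Timp2 ranged from -0.17 to 0.13 in bleomycin, -0.16 to 0.16 in Ad-GFP and -0.15 to 0.17 in Ad-ATP12A lungs against control, -0.11 to 0.15 between Ad-GFP and bleomycin and -0.16 to 0.15 between Ad-ATP12A and Ad-GFP lungs. Timp3 ranged from -0.11 to 0.10 and from -0.10 to 0.12 in those last comparisons, Timp4 from -0.12 to 0.062 between Ad-GFP and bleomycin lungs and from -0.044 to 0.078 between batches, and Timp1 from -0.42 to 0.19 between batches. TPM without counts gives no depth, so low members carry unknown counting error.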
